A study of Rattus norvegicus with 15 samples.

Results

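D63772 is the GenBank accession of 1 transcript on a rat long non-coding RNA array, and its level was followed along the enamel organ of the mandibular incisor. It was chosen by its strong rise in the maturation stage in an earlier analysis of these same arrays, so its stage levels are given here as a description and its maturation differences carry no test. The array held 38321 probes apart from controls, which stood for 38320 features once probes of the same gene were joined. Of these probes 62 carried a transcript accession, and D63772 was the only one with that accession, on a single probe (A_44_P251706) printed in 10 spots per array. D63772 was among the 23 accessions that matched no transcript of the RefSeq gene table of assembly GRCr8. Its gene is therefore not named here, and neither a position in the genome nor a sequence is given for it.

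The rat incisor grows throughout life, so that enamel-forming cells of all ages lie in order along the tooth. At the cervical loop epithelial progenitors divide and begin to differentiate into ameloblasts. Secretory ameloblasts build the enamel protein matrix, and maturation ameloblasts take up its fragments, move ions and control acidity while the mineral hardens. Total RNA came from the enamel organ of Wistar Hannover rats aged 4 weeks, with no treatment named, and each of the 15 samples was labelled with Cy3 and hybridized to an array of its own. There were 5 samples each of cervical loop, secretory stage and maturation stage, taken from 5 rats per the series design. Each group is whole dissected tissue, in which fewer cells of a type and less RNA per cell cannot be told apart.

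The stage of each array was read from the tissue label. For replicates 2 to 5 of the secretory and maturation stages, 8 arrays in all, the title gives the opposite stage, while titles and tissue labels match for replicate 1. The cervical loop arrays had a scan day of their own, and day and stage cannot be told apart for them. By scan time the arrays fell into 5 scans. Maturation replicates 1 to 4 were alone on scan 1, and secretory replicates 4 and 5 alone on scan 3. Scan and stage cannot be told apart for these arrays either, and scan 2 alone held both maturation and secretory arrays. The array named none of the 8 marker genes listed for enamel organ epithelium, and of the markers listed for other tissues it named Map2 alone. The tissue labels could therefore not be checked against marker genes. The share of spots well above background ranged from 67.4% to 78.9% per array, and precision is limited by having 5 arrays per stage.

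D63772 was bright on every maturation array and dim on all others. The processed signal is the spot brightness after background subtraction, averaged here over the spots of the probe that carried no outlier flag. In maturation it was 1094, 1274, 1285, 1489 and 1462 on replicates 1 to 5. In the cervical loop it was 9.60, 19.4, 25.7, 8.18 and 16.9 on replicates 1 to 5. In the secretory stage it was 7.47, 5.12, 15.3, 65.3 and 10.3 on replicates 1 to 5. The maturation arrays lay apart from all 10 others, the cervical loop and secretory arrays overlapped, and secretory replicate 4 was the brightest array outside maturation.

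**Figure D1:**
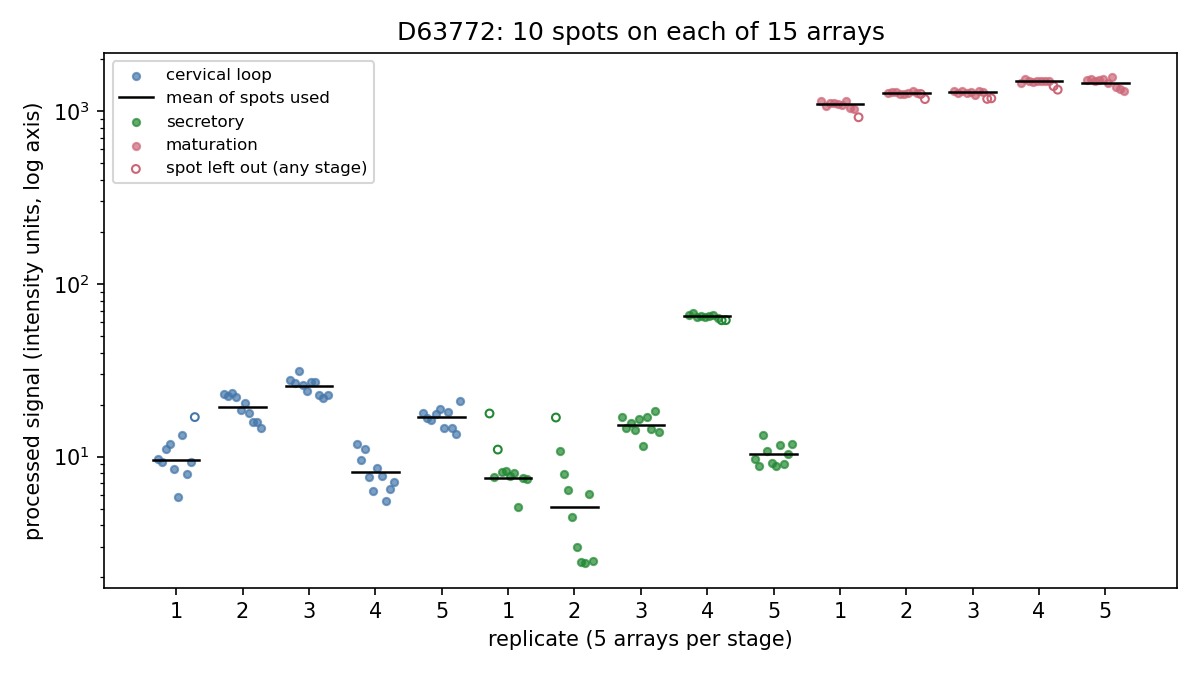
Processed signal of the 10 spots of D63772 on each of the 15 arrays, on a log axis, with replicates 1 to 5 of each stage from left to right; filled points are spots used, open points are spots left out for an outlier flag, and bars are the mean of the spots used. All maturation spots lie between 919.9 and 1567, and secretory replicate 4, at a mean of 65.3, lies between the maturation arrays and the other 9.

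The 10 spots lay in different rows of the array, from row 157 to row 462 of 532, and serve as technical repeats of one measurement. In maturation the coefficient of variation among the spots used on an array was 1.33% to 6.18%, and that among the 5 arrays was 12.2%. The 7 maturation spots left out lay in rows 427 or 462 and were mostly dimmer, so the first figures leave out part of the spread. The 12.2% is on unscaled signal and includes differences in brightness between whole arrays. On secretory replicate 4 the spots varied by 2.37%, from 63.1 to 68.0, so that its higher signal was seen in all spots used. On the other secretory arrays and in the cervical loop the spots varied by 11.5% to 57.5%, most on secretory replicate 2.

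These dim arrays lay near the limit of the measurement. The local background around the spots averaged at most 25.3 on each of the 15 arrays, and the raw median signal of the probe was 29.5 to 49.0 in the cervical loop and 27.7 to 93.3 in the secretory stage, against 1129 to 1564 in maturation. All 50 maturation spots were well above background, as were 47 of 50 cervical loop spots and 36 of 50 secretory spots. Only 3 of the 10 spots passed on each of secretory replicates 1 and 2. Counting an array where at least 50% of the spots used passed, D63772 was measured on 5 of 5 maturation arrays, 5 of 5 cervical loop arrays and 3 of 5 secretory arrays. No spot of it was saturated.

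For comparison between arrays, the log2 signal was taken relative to the 75th percentile of each array. On this scale D63772 stood at 1.40 ± 0.11 in maturation, -4.79 ± 1.48 in the secretory stage and -5.09 ± 0.54 in the cervical loop (SD, n = 5 each). Maturation values ran from 1.28 to 1.56, with a median of 1.37. Secretory values ran from -6.24 to -2.50, with a median of -5.13, and cervical loop values from -5.61 to -4.42, with the same median of -5.13. On this log2 scale the spread among maturation arrays was thus the smallest and that among secretory arrays the largest. The SD of the processed signal was instead largest in maturation, at 161, against 25.2 in the secretory stage and 7.23 in the cervical loop. The log2 spread of the dim arrays includes noise near background.

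D63772 was 6.20 higher in maturation than in the secretory stage on the log2 scale (SE 0.51 in the fit over all features), a 73.4-fold difference. With dim secretory values raised to the lowest signal of any probe well above background on that array, the fold was 71.0. This floor is not a detection limit. On secretory replicate 1, spots of D63772 at 8.04 and 8.12 did not pass, while the lowest passing spot of the array was 7.95. Against the cervical loop D63772 was 6.49 higher (SE 0.51), or 89.8-fold. The lowest maturation array exceeded the highest of all other arrays by 3.77 on the log2 scale, or 13.7-fold, and the highest cervical loop array 51.8-fold. Both differences share the maturation arrays and are therefore not independent of each other. Among all 28844 features tested, 25.1% were called higher in maturation than in the secretory stage and 20.6% higher than in the cervical loop (limma, adjusted p under 0.05), and all 5 maturation arrays lay above the 10 others for 8.7% of them. Since D63772 was chosen for this rise, these shares are background only.

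The difference between secretory stage and cervical loop is the one stage contrast whose means do not hold the maturation arrays. It was 0.29 on the log2 scale (SE 0.51, 95% interval -0.79 to 1.37) and did not pass the threshold (limma, Benjamini-Hochberg adjusted p = 0.643), in a comparison where 58.1% of features were called in either direction. The SE, interval and p rest on one spread shared by all 15 arrays, maturation included. The maturation SD was 0.11, against 1.48 in the secretory stage and 0.54 in the cervical loop. The interval allows a difference of more than 2-fold upwards, so that equal levels were not shown. Without secretory replicate 4 the sign turned, to -0.28 (SE 0.33, adjusted p = 0.493).

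How the arrays were scaled changed the size of the rise but not its direction. With quantile normalization D63772 was 6.05 higher in maturation than in the secretory stage and 6.89 higher than in the cervical loop, and with median scaling 6.42 and 6.93 higher. The median difference of all features moved from -0.12 to 0.10 between percentile and median scaling for maturation against secretory stage, and from -0.28 to 0.16 for maturation against cervical loop. With normexp background correction, which adds an offset of 50 to every spot, the differences were 3.84 (SE 0.16) and 4.08 (SE 0.16), and the secretory spread fell to an SD of 0.45. The maturation arrays lay above all other arrays on each of these 4 scales. Over all features, percentile scaling called 7245 higher and 9916 lower in maturation than in the secretory stage, and median scaling 9603 and 7019; against the cervical loop the counts were 5936 and 12312, and 10800 and 6685. For secretory stage against cervical loop they were 6172 higher and 10591 lower, and 8535 and 7328.

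**Figure D2:**
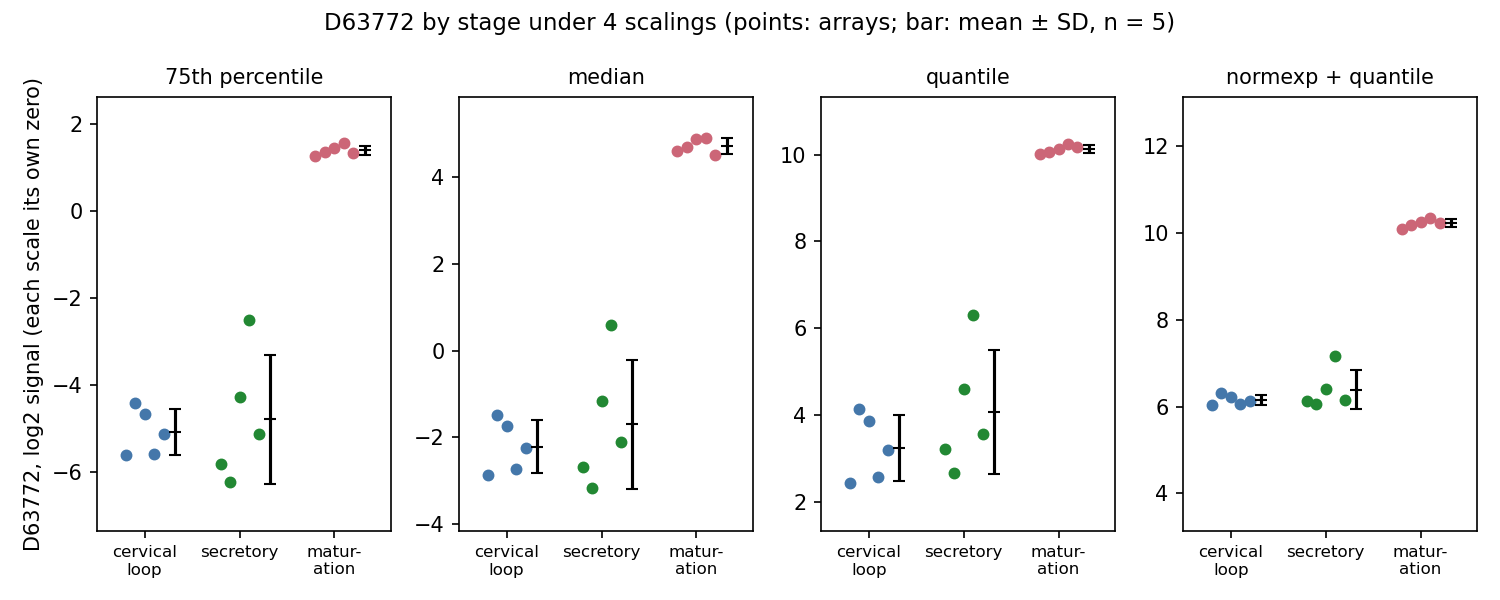
D63772 on each array (points, 5 per stage) with the mean ± SD beside them, as log2 signal scaled by the 75th percentile, by the median, by quantile normalization, and by normexp correction with quantile normalization; each panel spans the same number of log2 units with its own zero. On the first scale maturation lies at 1.40 ± 0.11 against -4.79 ± 1.48 and -5.09 ± 0.54, and normexp correction narrows the gap to the secretory stage to 3.84.

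Scan 2 held maturation replicate 5 with secretory replicates 1 to 3, whose normalized log2 values were 1.35 against -5.82, -6.24 and -4.27. D63772 was well above background on 1 of these 3 secretory arrays, replicate 3. With the floor described above in place of lower values, the maturation array was 105-fold above their mean, a description of 1 array against 3. For replicate 1, where title and tissue label name the same stage, the processed signal was 1094 in maturation and 7.47, not well above background, in the secretory stage. With the same floor the maturation array was 130-fold brighter on the normalized scale. Sorted by the titles in place of the tissue labels, each of these stages would hold both bright and dim arrays, and the maturation minus secretory difference of D63772 would be -3.36 on the log2 scale (SE 1.44).

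D63772 had one of the widest maturation differences on the array, which follows in part from its choice. Of the 28844 features tested, it ranked 12th by the difference from the secretory stage and 22nd by that from the cervical loop, and 11 features, D63772 included, were at least as far above both other stages. Among features well above background on at least 3 arrays of both stages compared, it ranked 8th of 26478 against the secretory stage and 18th of 27277 against the cervical loop. By the gap between the lowest maturation array and the highest other array it ranked 20th. Without secretory replicate 4 its gap was 5.55 and ranked 5th, while its difference from the secretory stage ranked 13th. That array was the highest for D63772 outside maturation, so leaving it out was bound to widen the gap.

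Among the 57 features with an accession that were tested, D63772 had the largest difference from both other stages. The next was XM_340999.3, an accession that likewise matched no gene, at 4.47 above the secretory stage and 5.20 above the cervical loop. The other 19 unmatched accessions had a median difference of 0.14 from the secretory stage, against -0.12 for all features, and 6 of them were called higher in maturation and 5 lower, where 25.1% of all features were called higher and 34.4% lower. Against the cervical loop their median was 0.19, with 6 called higher and 7 lower, where 20.6% of all features were called higher and 42.7% lower. Nothing particular to the unmatched accessions is read from these counts. Of 15 common reference genes listed, 8 were named on the array: in maturation against the secretory stage 4 were called higher and 1 lower, with a median difference of 0.36, and against the cervical loop 3 higher and 3 lower, with a median of 0.19, beside the same shares of all features. With median scaling these counts were 5 and 1, and 4 and 1, beside 9603 and 7019, and 10800 and 6685, of all 28844 features. With quantile normalization they were 2 and 1, and 3 and 2, beside 7741 and 7995, and 7238 and 8600. Of 8 glycolysis genes listed, Ldha and Pgk1, which encode a lactate dehydrogenase subunit and phosphoglycerate kinase, were named. Both were called higher in maturation, as were 25.1% of all features against the secretory stage and 20.6% against the cervical loop. Their median differences were 1.88 from the secretory stage and 1.19 from the cervical loop. Both were called higher on all 4 scales. On these scales 7245 to 9603 of 28844 features were called higher against the secretory stage, and 5936 to 10800 against the cervical loop.

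**Figure D3:**
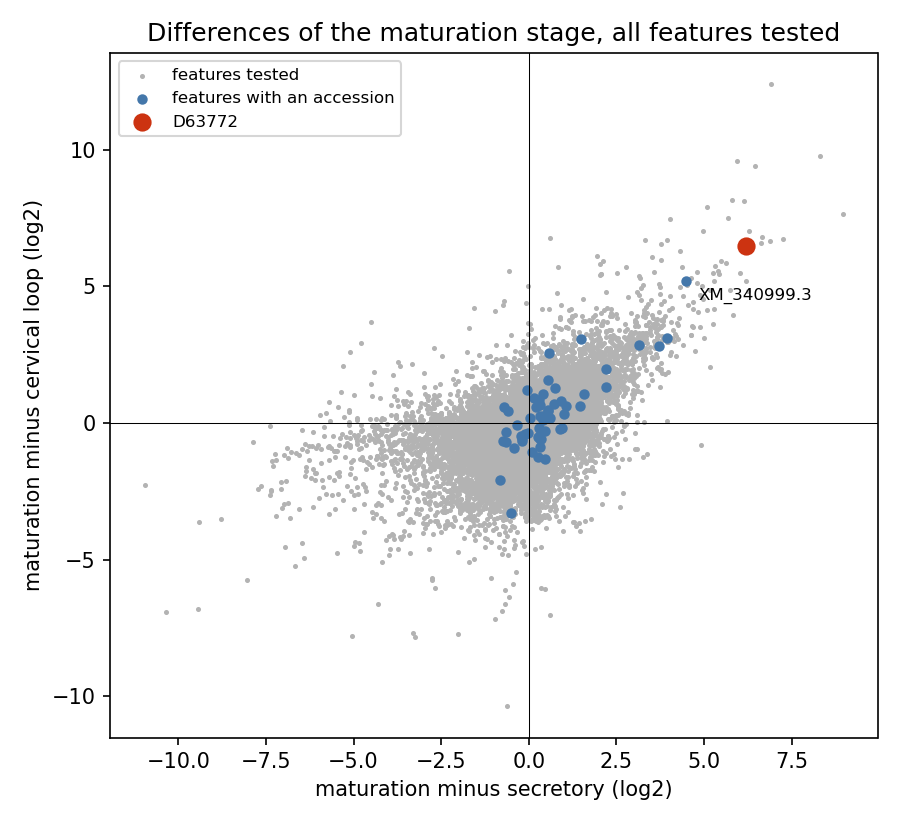
Log2 difference of maturation from the secretory stage (horizontal) and from the cervical loop (vertical) for all 28844 features tested (grey), the 57 with an accession (blue) and D63772 (red). D63772, at 6.20 and 6.49, lies farther out on both axes than any other feature with an accession; both axes share the maturation arrays.

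Secretory replicate 4 stood apart from the other secretory arrays in D63772. Its processed signal of 65.3 was 4.26-fold that of the next secretory array, replicate 3. On the normalized log2 scale it lay 2.87 above the mean of the other 4 secretory arrays, of which only replicates 3 and 5 were well above background. With the floor it was 7.02-fold above that mean. It was still 14.9-fold below the maturation mean. Without this array the secretory mean was -5.37 ± 0.86 (SD, n = 4), and the maturation difference was 6.77, or with the floor 105-fold.

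The same array was raised in other features that were high in maturation. Over the 52 other features with differences of at least 16-fold from both other stages, replicate 4 lay a median of 1.53 above the other secretory arrays on the log2 scale and was the highest secretory array for 41 of the 52. Replicate 3 lay 0.42 above, and replicates 1, 2 and 5 lay at -0.71, -0.79 and -0.61, an order in which D63772 also fell, with 0.65 on replicate 3 and -1.29, -1.81 and -0.42 on replicates 1, 2 and 5. D63772 was not well above background on replicates 1 and 2, so its place in the order there is uncertain. Over the 1342 other features called at least 2-fold above both stages, the median of replicate 4 was 0.24 and it was highest for 40.7%; over all features tested these were -0.0001 and 18.2%. These lists were set after the data were seen and with this array included. Features could enter them by being well above background in maturation alone. How many of them were well above background on the secretory arrays was not counted, so the order of the secretory arrays may rest in part on dim signals. No marker gene of maturation ameloblasts was named on the array, and whether maturation tissue in that sample contributed to its D63772 signal was not tested.

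**Figure D4:**
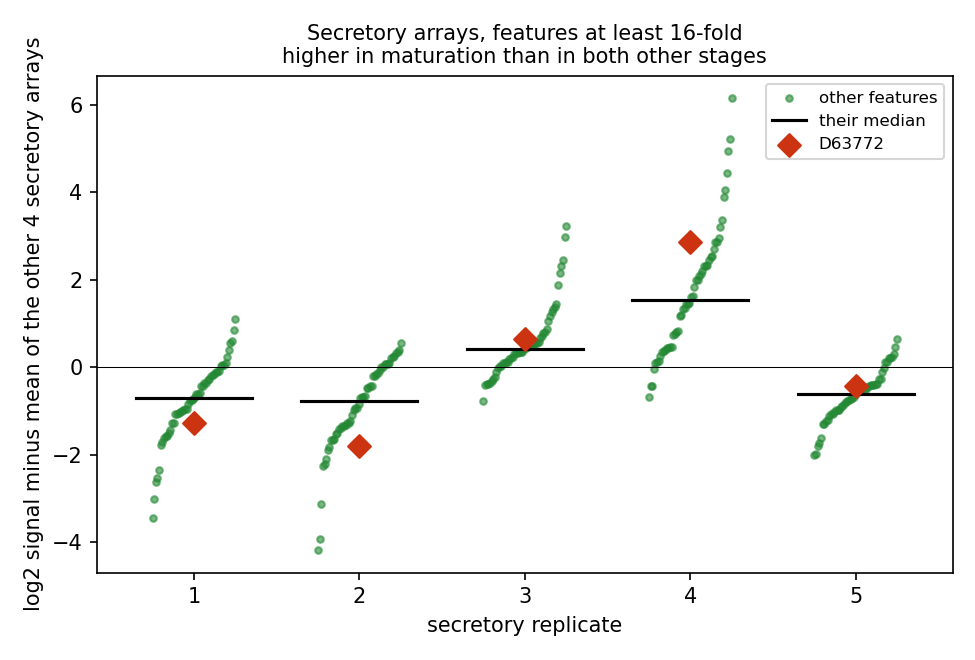
For each secretory replicate, the log2 signal minus the mean of the other 4 secretory arrays, for the 52 other features at least 16-fold higher in maturation than in both other stages (green points, in rising order, with their median as a bar) and for D63772 (red). Replicate 4 has the highest median, 1.53, and D63772 lies at 2.87 there.

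The features whose level followed D63772 most closely over the 15 arrays were found by Pearson's r of the normalized log2 signal. These r values are set largely by the step between maturation and the other stages that all such features share, and no test is attached to them. Of 28471 other tested features with a value on every array, 788 (2.77%) reached an r of 0.9 and 210 (0.738%) an r of 0.95. The median r over these tested features was -0.28.

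The 3 closest features were probes with an identifier of the array maker only, ASRNV20020830 (r = 0.992), ASRNV20020832 (r = 0.991) and ASRNV20021568 (r = 0.991). They were 6.64, 6.35 and 6.28 higher in maturation than in the secretory stage, sizes close to that of D63772. Like D63772, each had secretory replicate 4 as its highest secretory array, 2.46, 2.34 and 2.53 above the mean of the other 4. Over the 10 arrays outside maturation their r with D63772 was 0.895, 0.879 and 0.867, and without secretory replicate 4 it was 0.77, 0.71 and 0.58 over the remaining 9. Only 3 of 28510 tested features reached 0.9 over these 10 arrays, and none of these named probes was among them. D63772 was dim on these arrays and not well above background on secretory replicates 1 and 2. The r values outside maturation therefore rest in part on signals near background.

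Among the features with an accession, the 5 closest were XM_340999.3 (r = 0.97), Hprt1 (r = 0.97), Ptk2b (r = 0.96), Pdcd10 (r = 0.93) and Enpp1 (r = 0.92). Hprt1 encodes an enzyme of purine salvage and is often used as a reference gene, Ptk2b a non-receptor tyrosine kinase, and Enpp1 an enzyme that makes pyrophosphate, which holds back mineral deposition. Pdcd10 encodes a small protein known from cerebral cavernous malformations. The size of their change was smaller than that of D63772: the maturation minus secretory difference was 4.47 for XM_340999.3, 2.20 for Hprt1, 3.14 for Ptk2b, 0.91 for Pdcd10 and 3.70 for Enpp1. Enpp1 also fell from cervical loop to secretory stage, by 0.90 (limma, adjusted p = 9.09e-05), a step that D63772 did not show, although the difference between the pair was not tested. Secretory replicate 4 was the highest secretory array for XM_340999.3, Hprt1 and Ptk2b, the second highest for Pdcd10 and the third for Enpp1. Over the 10 arrays outside maturation the r of Enpp1 with D63772 was -0.19, and those of the other 4 were 0.50 to 0.66. Without secretory replicate 4 these r values moved, over the remaining 9 arrays, to 0.11 for Enpp1, 0.38 for XM_340999.3, 0.34 for Ptk2b, 0.88 for Pdcd10 and 0.66 for Hprt1. They share the limit that D63772 was near background on most arrays outside maturation.

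**Figure D5:**
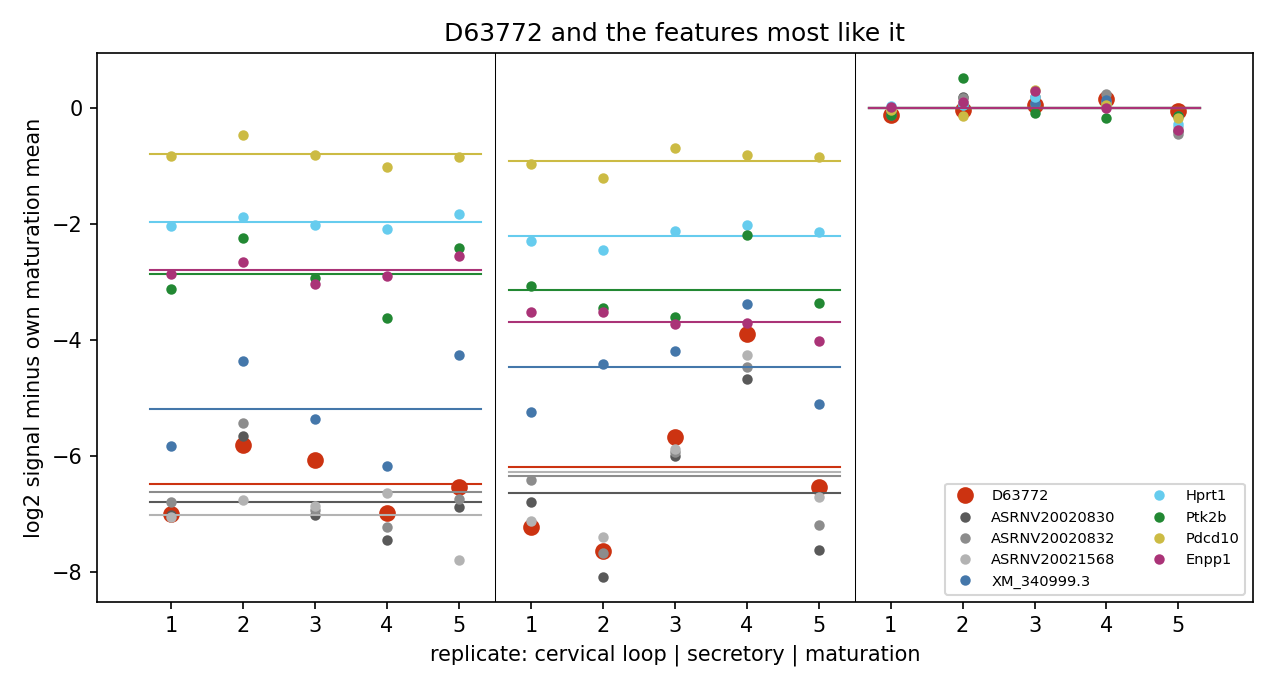
Log2 signal minus the feature's own maturation mean on each array, for D63772 (red), the 3 closest unnamed probes (greys) and the 5 closest features with an accession (other colours); lines are stage means. D63772 and the unnamed probes lie 6.20 to 7.03 units below maturation in both other stages and share a high secretory replicate 4, while Hprt1 and Pdcd10 lie 2.20 and 0.91 below it in the secretory stage.

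Ultraconserved elements are stretches of DNA identical between human, mouse and rat. Of 962 probes for them, 389 were among the features tested and had values on all arrays. The closest were uc.121+ (r = 0.922), uc.454- (r = 0.921) and uc.217+ (r = 0.906), and 4 in all reached 0.9. The probe uc.121+ was 1.39 higher in maturation than in the secretory stage. The probes uc.454- and uc.217+ were well above background on 5 maturation arrays and on 0 secretory arrays, so that no fold is given for them here. In the cervical loop uc.454- passed on 2 arrays and uc.217+ on 0. Their r therefore rests largely on values near background outside maturation. Among features with an accession, the opposite end was held by XM_235305 (r = -0.856) and AA819521 (r = -0.751), accessions without a gene match that were lower in maturation than in the secretory stage, with differences of -0.64 and -0.72 on the log2 scale.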

How the data were processed

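The submitters' processing notes name Agilent Feature Extraction 11.0.1.1 as the scanner software. The deposited scanner files hold, per the file headers, spot intensities on a linear scale, with background-subtracted processed signals, median signals and local background. A series table deposited by the authors, in log2 units by its values, served for counts over other features only.

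Scripts averaged each probe's spots without outlier flags (107 to 276 of 41623 spots per array were flagged), took log2 relative to the array's 75th percentile, and kept the brightest probe of a gene. Tests covered the 28844 features that were well above background throughout 1 stage or more, of which 372 lacked a value on some array, where the fit dropped that array; D63772 had all 15. Stages were compared with limma 3.58.1 (R 4.3.3) in one fit over 15 arrays, with Benjamini-Hochberg adjustment at 0.05, after a check on simulated data. Replicates are labelled as biological.

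The transcript, lists and tests were chosen with earlier results of these data known. Features alike D63772 were named as the 5 most and 2 least correlated with an accession, the 3 most correlated ultraconserved elements and the 3 most correlated unnamed probes. Same-numbered maturation and secretory arrays deviated together (correlations 0.107 to 0.289 for the 5 pairs); of all 15 pairs, 8 exceeded 0.1. Tables and plots used Python 3.11.15, pandas 2.3.3, numpy 2.4.6 and matplotlib 3.10.9.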

Additional observations from a re-analysis of the deposited data

Results flagged for a closer look

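Of 45 groups of 5 arrays examined for a single array far from the rest, 3 stood out, where chance flags about 1 in 20. On the linear scale, the processed signal of D63772 on secretory replicate 4 was 65.3, and its gap to the next array was 0.831 of the range of the secretory arrays; on the log2 scale the same array did not stand out by this measure. Ptk2b had 1 maturation array, replicate 2, at a normalized log2 signal of 0.33, above the other 4 by 0.872 of the range. ASRNV20020832 had 1 cervical loop array, replicate 2, at -1.69, with a gap of 0.734 of the range.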

How the results depend on the processing

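For D63772, maturation minus secretory kept the direction of the main analysis under all settings that gave a value except stages taken from titles. Maturation minus cervical loop kept its direction under all settings that gave a value. Maturation minus secretory was 6.20; it was 3.84 with normexp correction, -3.36 with stages from titles, and 5.83 to 6.77 when each array was left out in turn. Maturation minus cervical loop was 6.49; it was 6.89 with quantile normalization, 6.93 with median scaling, 4.08 with normexp correction, 1.71 with stages from titles, and 6.36 to 6.66 with each array left out. Secretory minus cervical loop was 0.29; it was 5.07 with stages from titles (limma, adjusted p = 0.0104), and -0.28 to 0.65 with each array left out, the lowest without secretory replicate 4. With the replicate block, a paired fit, the 3 differences stayed at 6.20, 6.49 and 0.29, as they must where each replicate number holds a single array per stage. Secretory minus cervical loop still did not pass the threshold in that fit (limma, adjusted p = 0.637). The number of features called between maturation and secretory stage was 17161, 8085 with the scan as a fixed block, 3393 within scan 2, and 0 with stages from titles (limma; 7324 at an unadjusted p under 0.05); between maturation and cervical loop it was 18248 and 11568 with stages from titles. Over the 10 cervical loop and secretory arrays, r with D63772 turned sign for Enpp1 (-0.19, but 0.11 without secretory replicate 4), XM_235305 (0.24), AA819521 (0.27) and uc.454- (-0.15), and without secretory replicate 4 as well for XM_235305 (0.38), AA819521 (0.15), uc.121+ (-0.20) and uc.454- (-0.0057); these settings were chosen after seeing the data. Of these features, uc.454- was well above background on only 2 cervical loop arrays and on 0 secretory arrays. The series table and the filter requiring signal on all 15 arrays gave no value for D63772. Normexp correction used median spot signals, as the files analysed here have no mean signal. Signals near background limit the secretory and cervical loop levels.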

Other observations

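Of the 210 features with an r of at least 0.95 with D63772 over the 15 arrays, 207 carried an identifier of the array maker only, 3 had an accession and 0 were ultraconserved-element probes. Of all 38321 probes, 37277 carried a maker identifier only. Among the 28471 features with an r, 56 had an accession and 389 were ultraconserved-element probes. Nothing particular to a kind of probe is read from these counts. Secretory replicate 4 was the highest secretory array for 155 of these 210, against 18.2% of all features tested. Over the 10 arrays outside maturation the median r of these 210 features with D63772 was 0.58, against -0.05 for all features tested. Their choice used these arrays too, and D63772 was near background on most of them, so that these values are a description.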
